A study of Mus musculus with 2 samples.

Results

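The 9 transcription factors described here are Cux1, Cux2, Rorb, Bcl11b, Fezf2, Tbr1, Tle4, Foxp1 and Foxp2, which are used to tell the layers of the cerebral cortex apart. They were chosen by name, and all 9 are among the 31053 genes of the count matrices. The nuclei came from Atf3-CreER::Sun1-sfGFP mice (Atf3-CreER:+/wt; SUN-SfGFP:+/wt), in which a cell that expressed Atf3 while tamoxifen was present carries GFP on its nuclear envelope. All animals were over 7 weeks old, had a mild traumatic brain injury (mTBI) and received tamoxifen at 4 and 5 days post-injury (dpi), and GFP+ nuclei were sorted from the ipsilateral cortex at 7 dpi. There were 2 libraries, 1 from a pool of 4 males and 1 from a pool of 4 females. A field of the public label gives the sex of the female library as male, while its name and the deposited table of nuclei give female. All nuclei shared the injury, the tamoxifen, the CreER allele and a history of Atf3 expression, so no neurons without Atf3 activation and no uninjured cortex were compared here, and the reporter also marked many microglia.

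Layer factors act in cascades that sort cortical projection neurons into types. Cux1 and Cux2 are homeodomain proteins of upper-layer intratelencephalic (IT) neurons, which project within the cortex, and Rorb is a nuclear receptor of layer IV. Fezf2 and its downstream zinc finger factor Bcl11b (Ctip2) specify the layer V neurons that project to brainstem and spinal cord, called pyramidal tract (PT) neurons. The T-box factor Tbr1, the corepressor Tle4 and the forkhead factor Foxp2 mark corticothalamic (CT) neurons of layer VI, and the forkhead factor Foxp1 spans layers III to VI. Several of them also act outside these types, for example Bcl11b in interneurons.

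The genes lie on 6 chromosomes of GRCm38. The upper-layer genes are Cux1 (ENSMUSG00000029705, chr5:136248135-136567490, minus strand), Cux2 (ENSMUSG00000042589, chr5:121856366-122050102, minus strand) and Rorb (ENSMUSG00000036192, chr19:18930605-19111196, minus strand). The genes of layer V are Bcl11b (ENSMUSG00000048251, chr12:107910403-108003602, minus strand) and Fezf2 (ENSMUSG00000021743, chr14:12342094-12348189, minus strand). Those of layer VI are Tbr1 (ENSMUSG00000035033, chr2:61802930-61814114, plus strand), Tle4 (ENSMUSG00000024642, chr19:14448150-14598051, minus strand) and Foxp2 (ENSMUSG00000029563, chr6:14901349-15441977, plus strand), and Foxp1 (ENSMUSG00000030067) is at chr6:98925338-99522721 on the minus strand.

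The deposited table held 8171 nuclei, 4003 male and 4168 female, with a median of 1742 and 3710 UMIs (unique molecular identifiers, counts of captured RNA molecules). Levels were taken in 2894 nuclei, of which 2499 carried 1 of the 9 neuron labels with at least 50 nuclei and 395 were kept as neurons under the label Unknown. The paper used this label for neurons whose cortical origin it was unable to establish. A level is the UMIs of a gene per 1000000 UMIs (CPM), summed over the nuclei of a label in 1 library. The labels were only partly borne out by markers that are not among the 9 factors. Among the 9 labels, with Unknown left out, 4 of 8 L6 CT, 4 of 9 L5 PT and 3 of 7 L2/3 IT markers were highest in their own label. So were 1 of 6 L4/5 IT and 1 of 6 L6 IT markers, the latter Osr1 at 0 and 2.44 CPM. Of these, Zfpm2 (L6 CT), Bcl6 (L5 PT) and Calb1 (L2/3 IT) were higher still in the Unknown nuclei. L6 IT nuclei were spread over 10 clusters with 21.3% in the leading one. For interneurons, 6 of 7 Sst, 6 of 7 Vip and 3 of 8 Pvalb markers were highest in their own label, but some defining genes were nearly absent. Pvalb was at 1.58 and 0.516 CPM in the Pvalb label and Sst at 3.77 and 0 CPM in the Sst label, while Vip was at 146 and 72.2 CPM in its own. RNA of other cells was present too. The 11 microglial markers summed to between 329 and 1828 CPM over neuron labels and libraries, against 7356 and 7281 CPM in microglia. They were highest in L2/3 IT CTX-2 (720 CPM male, 1828 CPM female) and L6 IT (833 and 1612 CPM), which also had the fewest UMIs per nucleus.

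**Figure D1:**
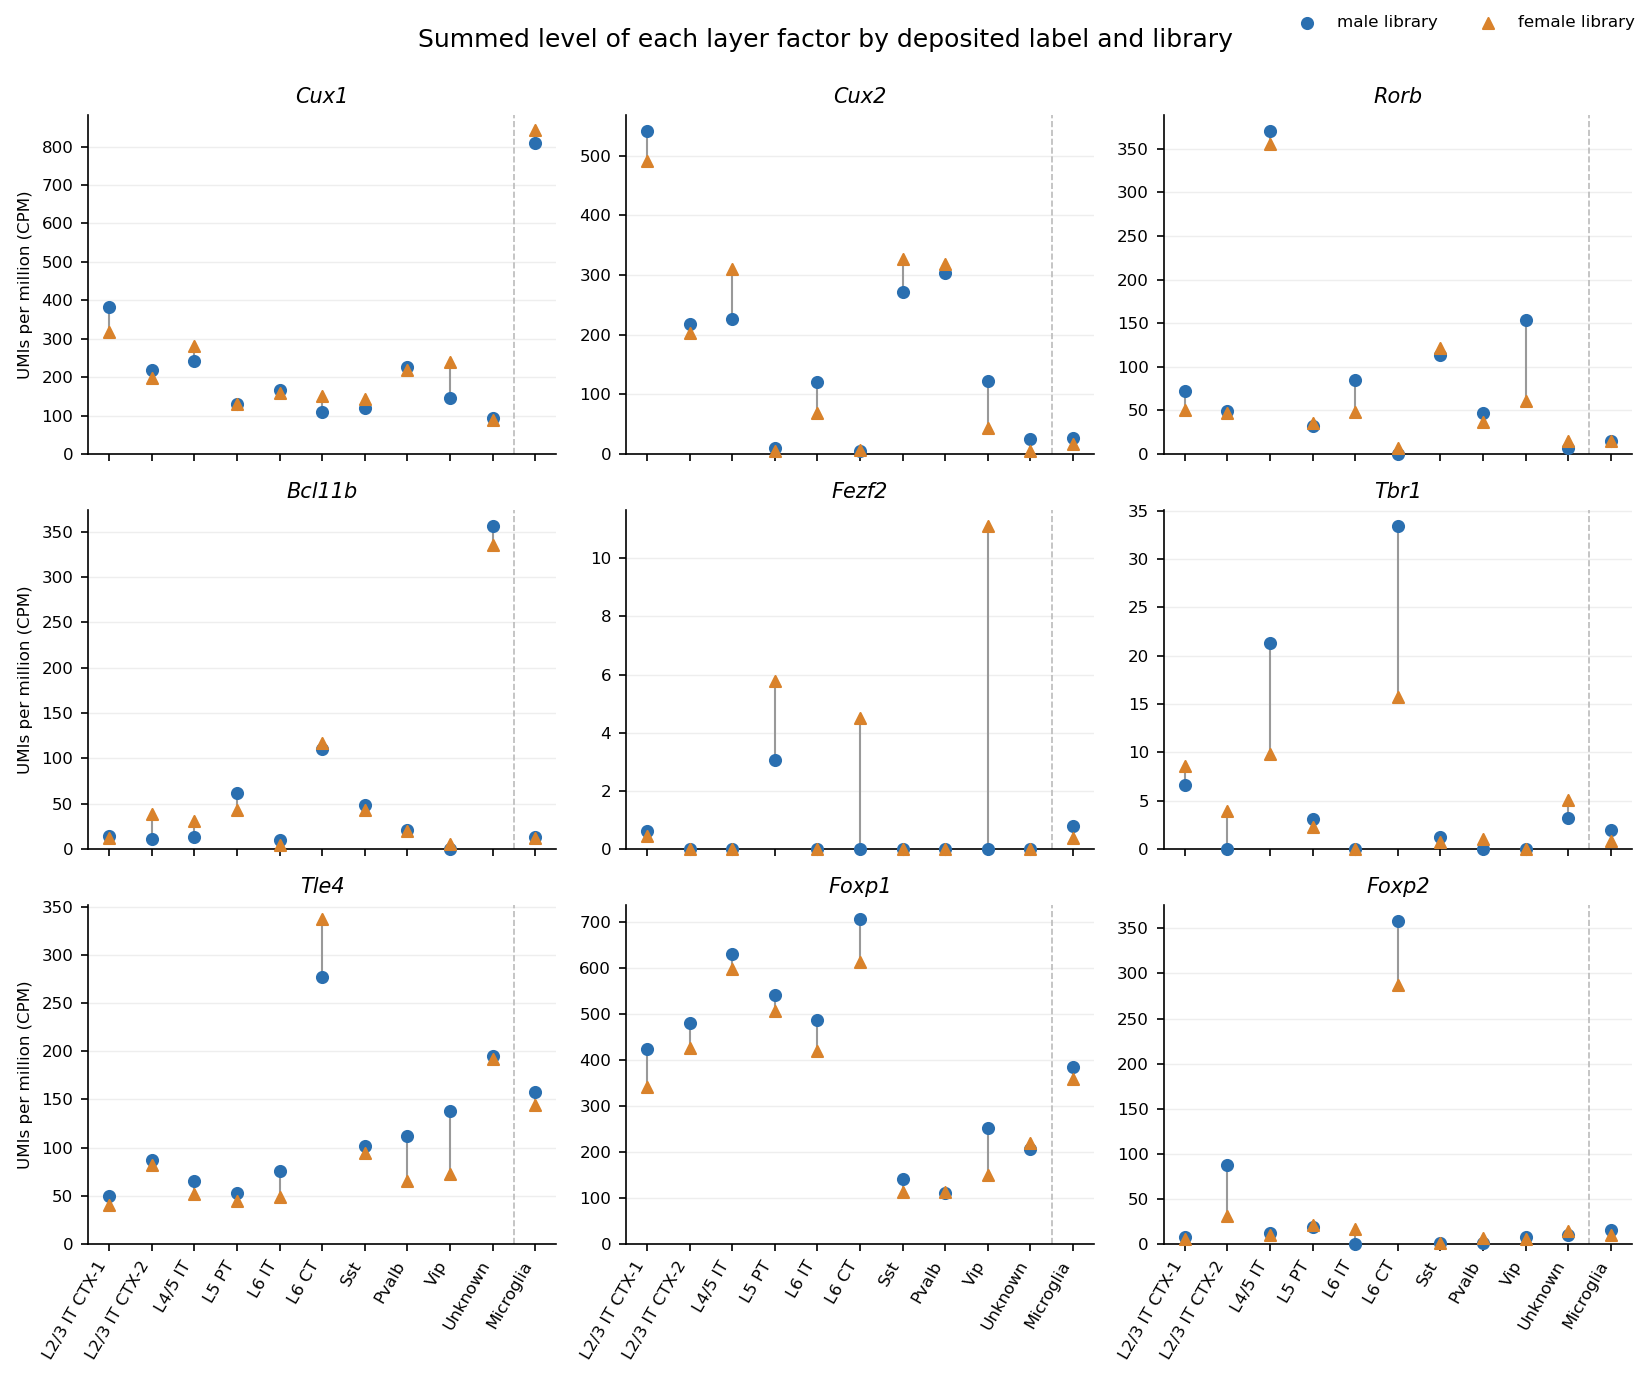
CPM (linear axis, a separate scale for each gene) of the 9 factors in each deposited label, with the male library as circles, the female library as triangles and a line between them. Microglia of the same libraries stand to the right of the dashed line. Cux2 peaks in L2/3 IT CTX-1, Rorb in L4/5 IT, Foxp2 and Tle4 in L6 CT and Bcl11b in the Unknown nuclei, while Cux1 is higher in microglia (810 and 844 CPM) than in any neuron label.

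Among the upper-layer factors, Cux2 separated superficial from deep excitatory labels. It stood at 541 CPM (male) and 491 CPM (female) in L2/3 IT CTX-1, and at 9.80 and 5.78 CPM in L5 PT and 4.78 and 6.73 CPM in L6 CT. Both libraries of L2/3 IT CTX-1 lay above those of every other label. Pvalb (303 and 319 CPM), Sst (271 and 326 CPM) and L4/5 IT (226 and 310 CPM) followed, and their libraries overlapped in that order. Of L5 PT nuclei, 4.55% (95% exact Clopper-Pearson interval 2.62 to 7.28%) of the male and 6.55% (3.99 to 10.0%) of the female library held a Cux2 UMI. After each nucleus was thinned to 2300 UMIs, these shares were 2.57% and 1.64%. They were no higher than the 6.34% and 3.57% of thinned microglia, which is background. Only 194 of 1690 male and 1689 of 2338 female microglia reached 2300 UMIs (medians of 1298.5 and 3012.5 UMIs before thinning). Before thinning, 3.61% and 5.18% of all microglia held a Cux2 UMI. The same thinned microglia serve as background for the other factors.

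Cux1 was less selective. It was at 383 and 318 CPM in L2/3 IT CTX-1, 242 and 282 CPM in L4/5 IT, 129 and 131 CPM in L5 PT and 92.5 and 88.3 CPM in the Unknown nuclei, the lowest label. Sst, L5 PT and L6 CT did not stand apart from one another. Since microglia held 810 and 844 CPM of Cux1, its neuronal level was set beside the microglial markers. If the summed 11 markers gave the share of microglial RNA, microglia would bring 65.7 CPM (male) and 102 CPM (female) of Cux1 to L5 PT, and 59.0 and 105 CPM to L2/3 IT CTX-1. In the female L2/3 IT CTX-2 sum this estimate (212 CPM) exceeded the measured Cux1 level (199 CPM), so the summed markers can overstate the microglial share. The part of microglial RNA in these levels was not tested.

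Rorb was highest in L4/5 IT, with 370 CPM (male) and 355 CPM (female), and both libraries stood clear of all other labels. A Rorb UMI was found in 54.0% (43.7 to 64.0%) of male and 63.4% (51.1 to 74.5%) of female L4/5 IT nuclei, and in 40.2% and 39.5% after thinning. L6 CT held 0 Rorb UMIs in the male library, which allows up to 14.3 CPM, and 3 UMIs in the female library. Among interneurons, Sst held 113 and 121 CPM, while Vip gave 154 CPM from 34 male nuclei and 61.1 CPM from 27 female nuclei.

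The promoters of the factors are shown only where they hold a match to TGANTCA. This pattern is wider than the consensus site of AP-1, TGACTCA or TGAGTCA. AP-1 is the dimer family that includes ATF3, and Atf3 expression drove the sort. RefSeq windows of the 250 bases before a transcript start (GRCm38.p6) were at hand for 8 of the 9 factors, 13 windows in all. They were searched on both strands for TGANTCA (the wider pattern) and TGACGTCA (the related cyclic AMP response element). TGANTCA stands in 2 of the 13 windows, against 6.75% of all 32851 windows, and the second motif in 0 of 13, against 1.55%. The matches are in the window of an internal start of Rorb (chr19:19001118-19001367, minus strand), which lies in an intron of a longer transcript, and in that of an internal start of Fezf2 (chr14:12345960-12346115, minus strand, shown up to an annotated exon). Capitals mark the matched letters, which are a description and not a tested site. Both matches have T or A as the middle letter, where the AP-1 consensus has C or G.
Rorb: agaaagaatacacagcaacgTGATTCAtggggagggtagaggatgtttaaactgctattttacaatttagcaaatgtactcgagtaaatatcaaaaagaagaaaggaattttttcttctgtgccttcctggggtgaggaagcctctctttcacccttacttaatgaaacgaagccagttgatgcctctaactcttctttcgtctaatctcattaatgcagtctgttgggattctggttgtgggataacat
Fezf2: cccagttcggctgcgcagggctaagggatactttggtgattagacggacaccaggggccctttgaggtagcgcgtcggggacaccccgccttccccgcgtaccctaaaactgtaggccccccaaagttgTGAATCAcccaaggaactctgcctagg

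The layer V program was thinly covered. Fezf2, the selector of subcerebral projection neurons, was at 3.06 CPM (5 UMIs in 352 nuclei) in male L5 PT and 5.78 CPM (20 UMIs in 290 nuclei) in female L5 PT. It was at 0 UMIs in both libraries of L2/3 IT CTX-2, L4/5 IT, L6 IT, Sst, Pvalb and Unknown. Female Vip (11.1 CPM) and female L6 CT (4.49 CPM) each held 2 UMIs and their male sums 0, and L2/3 IT CTX-1 held 1 UMI in each library. A Fezf2 UMI was found in 1.42% (0.463 to 3.28%) of male and 6.55% (3.99 to 10.0%) of female L5 PT nuclei, and in 1.21% and 1.40% after thinning, against 0.378% and 0.0952% of microglia. Barcodes with at most 100 UMIs, which carry free RNA, held Fezf2 at 6.21 CPM male and 2.17 CPM female. These values rest on 3 and 2 UMIs, too few to tell whether the L5 PT levels exceeded that of free RNA. The gene spans 6.1 kb, while Foxp1 and Foxp2 span 597.4 and 540.6 kb, and counts of nuclear RNA also include introns, so levels were compared within a gene and not between genes.

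Bcl11b in L5 PT stood at 61.9 CPM (male) and 42.5 CPM (female), and a UMI was found in 19.3% (15.3 to 23.8%) and 27.6% (22.5 to 33.1%) of these nuclei. L6 CT held more, 110 and 117 CPM, and Sst held 49.0 and 43.1 CPM, which overlapped with L5 PT. The few Lamp5 interneurons (15 male and 12 female nuclei) held 116 and 127 CPM. Upper-layer labels were lower, with 14.4 and 12.2 CPM in L2/3 IT CTX-1. The highest level was outside the named labels, in the Unknown nuclei with 356 and 335 CPM. In L2/3 IT CTX-1 the thinned share of nuclei with a Bcl11b UMI was 2.06% and 2.90%, at the microglial background of 2.43% and 2.44%, and in L5 PT it was 11% and 8.95%.

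Factors of layer VI were concentrated in the L6 CT nuclei, 41 male and 44 female. Foxp2 reached 358 and 287 CPM there, above L2/3 IT CTX-2 with 87.3 and 31.2 CPM as the next label, and a UMI was found in 56.1% (39.7 to 71.5%) and 61.4% (45.5 to 75.6%) of nuclei. Tle4 reached 277 and 337 CPM, and its next label was Unknown with 195 and 192 CPM, apart from all others. Tbr1 rested on few molecules, with 7 UMIs in each library of L6 CT (33.4 and 15.7 CPM), and overlapped with L4/5 IT (21.3 and 9.86 CPM). L6 IT held 0 Tbr1 UMIs in both libraries, which allows up to 15.1 CPM (male) and 7.31 CPM (female).

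Foxp1 was found in every label. It was at 707 and 613 CPM in L6 CT, 631 and 597 CPM in L4/5 IT, 541 and 507 CPM in L5 PT and 424 and 342 CPM in L2/3 IT CTX-1, and L6 CT and L4/5 IT overlapped. All 6 excitatory labels lay above all 3 interneuron labels and Unknown, with Pvalb lowest at 110 and 114 CPM. Microglia held 385 and 359 CPM of Foxp1 and 158 and 144 CPM of Tle4, and the estimate from all 11 markers put the microglial part in L5 PT at 31.2 and 43.4 CPM of Foxp1 and 12.8 and 17.4 CPM of Tle4.

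Levels of the other factors were also set beside the barcodes with at most 100 UMIs. Bcl11b was at 41.4 CPM (male) and 57.6 CPM (female) there, so the L5 PT and Sst levels lay above it in the male and below it in the female library, while L6 CT and Unknown lay above it in both. Rorb was at 43.5 and 60.9 CPM and Foxp2 at 45.6 and 40.2 CPM, both above their L5 PT levels, while Rorb in L4/5 IT and Foxp2 in L6 CT exceeded these values in both libraries. Tle4 (82.8 and 112 CPM) was exceeded in both libraries by L6 CT and Unknown. Cux1 (373 and 349 CPM) was exceeded in both libraries by no neuron label. Foxp1 (350 and 377 CPM) was exceeded in both libraries by every excitatory label except L2/3 IT CTX-1, which lay below this value in the female library. Unknown and the interneuron labels lay below the Foxp1 value in both. Cux2 (126 and 96.8 CPM) lay above L6 IT, Vip, Unknown, L5 PT and L6 CT and below the other labels in both libraries. Tbr1 (6.21 and 3.26 CPM, from 3 UMIs in each library) was exceeded in both libraries by L6 CT, L4/5 IT and L2/3 IT CTX-1. With so few UMIs, this order is uncertain. The part of free RNA in the lower levels was not tested.

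The first comparison asked how layer V neurons differed from those of layer II/III. Between L5 PT and the mean of the 2 L2/3 IT labels, Cux2 and Cux1 were lower, with log2 fold changes of -5.38 and -0.96, and Bcl11b was higher, with 1.5. Thus 3 of the 8 factors tested passed an adjusted p of 0.05 in edgeR's quasi-likelihood test on summed UMIs, against 12.3% of all 9673 genes tested. By direction, 1 factor was higher and 2 were lower, against 7.08% and 5.25% of all genes. Fezf2 did not pass the filter on low counts and was not tested. Since the labels were mapped from the same counts, the groups are partly defined by such genes, and a p-value measures the spread between 2 pools that also differ in sex and depth.

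For Cux2 the standard error was 0.35 (adjusted p = 2.39e-10), and L5 PT was lower in both libraries. The Bcl11b difference (SE 0.27, adjusted p = 0.000442) was 2.26 in the male library alone and 0.94 in the female library alone. The Cux1 difference (SE 0.19, adjusted p = 0.00106) was -0.58 (SE 0.28, adjusted p = 0.226) after thinning. Without nuclei that held 3 or more microglial UMIs it stayed at -0.97 with a larger SE of 0.33 (adjusted p = 0.0606), and without the 25% of nuclei with most microglial UMIs it was -1.07 (adjusted p = 0.00027). Foxp1 was 0.42 higher (SE 0.15, adjusted p = 0.0798) and passed with the library as a block (adjusted p = 0.0188). Rorb (-0.56), Tbr1 (-0.58), Tle4 (-0.26) and Foxp2 (0.15) did not pass.

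Among 36 other regulators of layer or pallial identity, 30 were tested. Of these, 3 rose and 6 fell in L5 PT, against 7.08% and 5.25% of all genes. Sox5, a factor of deep-layer neurons, was 1.17 higher (661 to 712 CPM against 331 to 333 CPM), followed by Nfib (1.01) and Bcl6 (1.63). Bcl11a, the paralog of Bcl11b, was lower (-1.49), as were Tcf4 (-1.05) and Nr2f1 (-2.35). The median difference of the 30 was -0.33, against 0.02 over all genes.

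**Figure D2:**
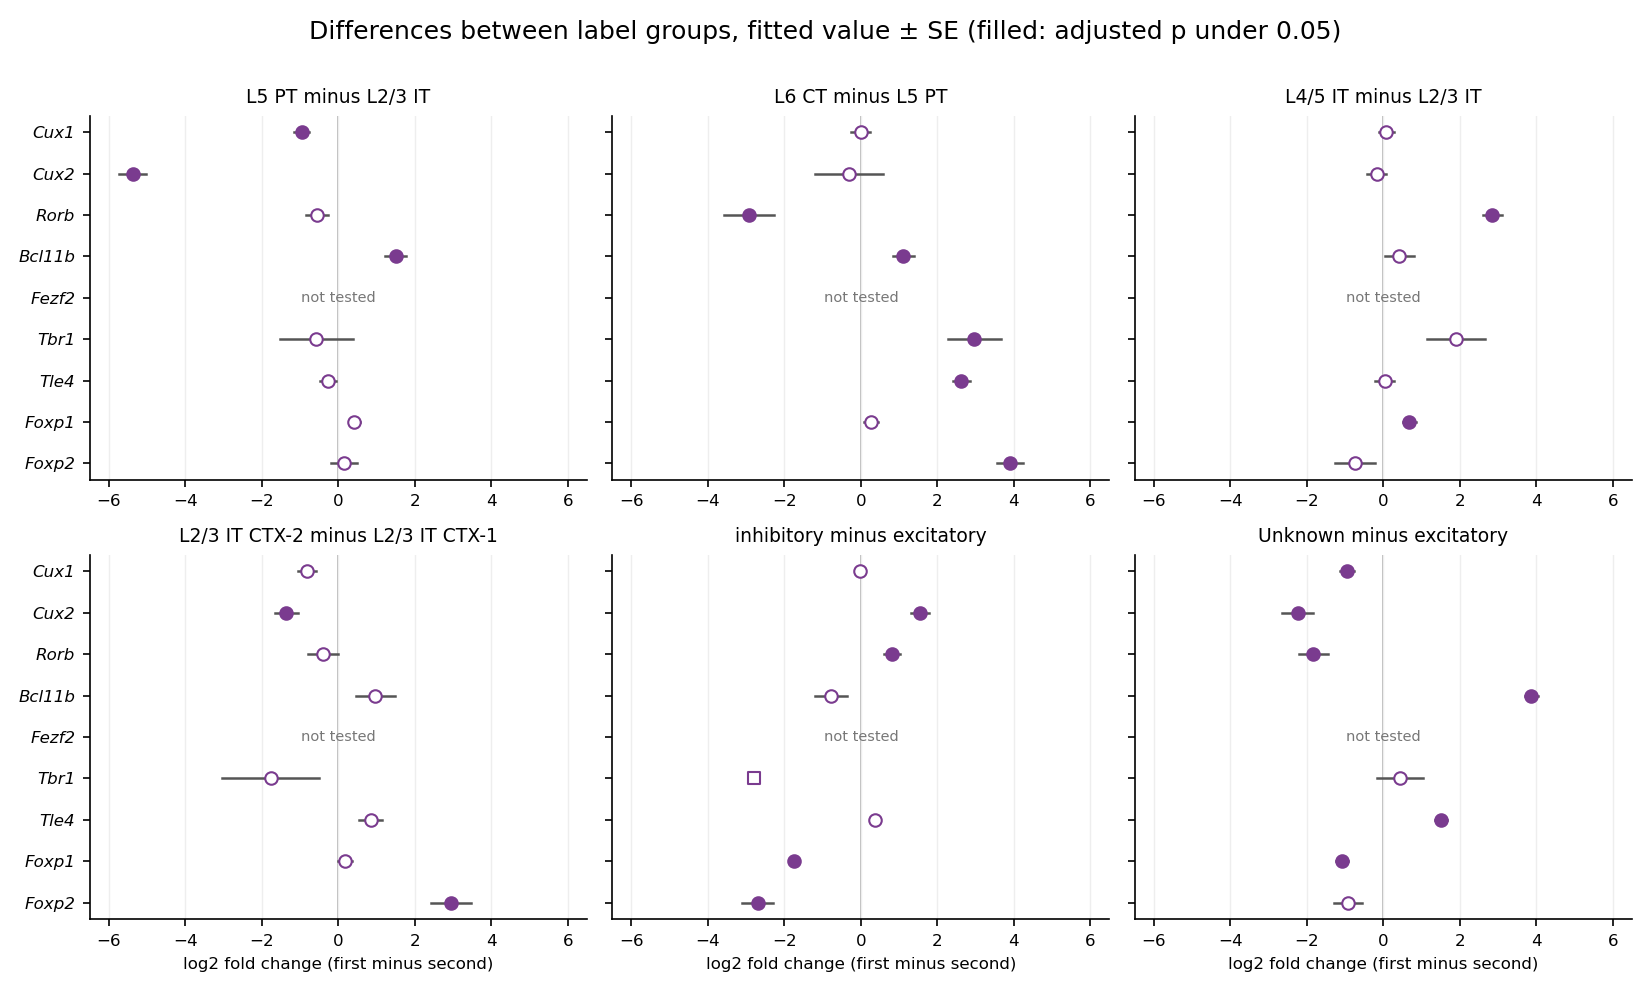
Fitted log2 fold changes with their standard errors for the 9 factors in 6 comparisons of labels, where filled symbols passed an adjusted p of 0.05. The square marks Tbr1 between inhibitory and excitatory labels, which has no usable standard error because the interneuron sums are near 0, and Fezf2 was not tested. Cux2 shows the lowest value, -5.38 in L5 PT against L2/3 IT, and Foxp2 the highest, 3.90 in L6 CT against L5 PT.

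Between the deep layers, corticothalamic factors separated L6 CT from L5 PT most clearly. Foxp2 was 3.90 higher (SE 0.34, adjusted p = 2.97e-08), Tle4 2.63 higher (SE 0.22, adjusted p = 1.06e-08), Tbr1 2.97 higher (SE 0.69, adjusted p = 0.00562) and Bcl11b 1.11 higher (SE 0.28, adjusted p = 0.00836). Rorb was lower (-2.92, SE 0.66, adjusted p = 0.0038). Thus 5 of 8 factors passed, 4 higher and 1 lower, against 12.8% of all genes (5.73% higher and 7.06% lower). The Rorb value rests on 3 UMIs in L6 CT, and its size depends on how a count of 0 is treated, since the male library alone gave -6.02. After thinning, Rorb (-2.39, SE 1.21, adjusted p = 0.253) and Bcl11b (1.17, SE 0.42, adjusted p = 0.0719) no longer passed, with larger errors, and Tbr1 gave no test. Without nuclei that held 3 or more microglial UMIs, which left 1 female L6 CT nucleus, the Bcl11b value was 0.06 (adjusted p = 0.981). Cux1 (-0.01), Cux2 (-0.30) and Foxp1 (0.27) did not pass.

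Of the 30 other regulators, 8 rose and 1 fell in L6 CT, against 5.73% and 7.06% of all genes. Bcl11a was 2.08 higher (180 to 296 CPM against 44.7 to 56.1 CPM), Tcf4 1.52 higher, and Zfpm2, a known gene of corticothalamic neurons, 2.44 higher. The gene that fell was Bcl6 (-2.84), with 0 and 4.49 CPM in L6 CT against 18.4 and 24.0 CPM in L5 PT.

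Within upper layers, L4/5 IT differed from L2/3 IT in 2 of 8 factors, both higher, against 4.04% of all genes (3.14% higher and 0.899% lower). Rorb was 2.85 higher (SE 0.24, adjusted p = 7.86e-08) and passed under every alternative that kept both libraries. Foxp1 was 0.68 higher (SE 0.16, adjusted p = 0.0119). This call was lost with library totals in place of TMM factors (0.56, adjusted p = 0.092) and without the 25% of nuclei with most microglial UMIs (0.59, adjusted p = 0.0604). Cux1 (0.08) and Cux2 (-0.17) did not pass. Of the other regulators, 3 rose (Mef2c 1.02, Tcf4 0.72, Lmo3 3.16) and 0 fell.

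The 2 superficial IT labels differed from one another in 2 of 8 factors, 1 higher and 1 lower, against 0.341% of all genes (0.258% higher and 0.0827% lower). L2/3 IT CTX-2 held less Cux2 than L2/3 IT CTX-1, 218 and 203 CPM against 541 and 491 CPM (-1.36, SE 0.30, adjusted p = 0.0485). Foxp2 was 2.94 higher (SE 0.53, adjusted p = 0.0105), but its 16 male UMIs came from 4 nuclei and its 8 female UMIs from 2 nuclei, of 77 in each library. Neither call held after thinning, with an adjusted p of 0.0842 for Cux2 and 0.391 for Foxp2, and Cux2 was not called without TMM factors either (adjusted p = 0.13). With the library as a block, Cux1 passed too (-0.83, adjusted p = 0.0232). Only 40.3% of the CTX-2 nuclei were in their leading cluster, which was also that of CTX-1 and L4/5 IT. The single other regulator to pass was Tshz2 (5.55, with 2144 and 1308 CPM against 23.5 and 43.5 CPM).

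Interneurons held less of the forkhead factors than the excitatory mean and more Cux2 and Rorb. Against the mean of the 6 excitatory labels, the mean of Sst, Pvalb and Vip was 1.54 higher in Cux2 (SE 0.23, adjusted p = 1.68e-05) and 0.82 higher in Rorb (SE 0.21, adjusted p = 0.00472). It was lower in Foxp1 (-1.76, SE 0.11, adjusted p = 8.26e-12) and in Foxp2 (-2.70, SE 0.41, adjusted p = 2.1e-05). Thus 4 of 8 factors passed, 2 in each direction, against 22.9% of all genes (11.1% higher and 11.8% lower). The Cux2 value is set against a mean that includes L5 PT and L6 CT near 0, and L2/3 IT CTX-1 lay above every interneuron label. Vip (122 and 44.4 CPM of Cux2) also lay below L2/3 IT CTX-2 and L4/5 IT. For Foxp2, the interneuron sums held 1 to 13 UMIs each, and the excitatory mean includes L6 CT with 358 and 287 CPM. Foxp2 in Vip (8.11 and 5.56 CPM) overlapped with L2/3 IT CTX-1 (7.82 and 5.9 CPM). For Rorb, L4/5 IT (370 and 355 CPM) lay above every interneuron label, and Pvalb (47.3 and 37.2 CPM) was below L2/3 IT CTX-1 (72.2 and 50.3 CPM) in each library. Rorb was 1.43 higher in the male and 0.48 higher in the female library alone, and did not pass after thinning (0.65, adjusted p = 0.205). Of the other regulators, 3 rose (Tcf4 1.52, Myt1l 0.77, Rfx3 0.45) and 17 fell, among them Ldb2 (-2.53) and Nfib (-1.94).

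The nuclei labelled Unknown held Bcl11b and Tle4 with little Cux2 and Rorb. Bcl11b was 3.86 higher than the excitatory mean (SE 0.17, adjusted p = 1.14e-14) and Tle4 1.5 higher (SE 0.15, adjusted p = 1.23e-08). Cux1 (-0.95), Cux2 (-2.24), Rorb (-1.83) and Foxp1 (-1.08) were lower. Foxp2 (-0.92, adjusted p = 0.0537) passed with the library as a block (adjusted p = 0.0266). Thus 6 of 8 factors passed, 2 higher and 4 lower, against 37.4% of all genes (19.8% higher and 17.6% lower). A Bcl11b UMI was found in 68.4% (61.9 to 74.5%) of male and 81.2% (74.5 to 86.8%) of female nuclei, and in 56.0% and 52.0% after thinning. The log2 ratio of Cux2 was -1.59 in the male library alone and -3.46 in the female library alone, with 23 UMIs (24.5 CPM) and 9 UMIs (5.68 CPM).

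These nuclei came from 2 clusters, and Bcl11b was high in both. In cluster 7 (190 male and 143 female nuclei) it was at 359 and 330 CPM, and in cluster 23 (35 and 27 nuclei) at 288 and 434 CPM. The reference mapping had placed 177 male and 138 female nuclei of cluster 7 in L2/3 IT CTX-1, whose own Bcl11b level was 14.4 and 12.2 CPM. Slc17a7, the vesicular glutamate transporter of cortical excitatory neurons, was highest in the Unknown nuclei among all labels (222 and 137 CPM). The markers of inhibitory neurons summed to 2171 and 1879 CPM, of which Adarb2 made up 2102 and 1799 CPM, while Gad1, a GABA-synthesising enzyme, was at 22.3 and 39.1 CPM against 162 to 250 CPM in the interneuron labels. Slc32a1, the vesicular GABA transporter, was at 0 in both libraries but also at most 10.4 CPM in the interneuron labels.

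Of the 30 other regulators tested in the Unknown nuclei, 17 were higher and 7 lower, against 19.8% and 17.6% of all genes. Rfx3 was 3.02 higher (715 and 738 CPM against 102 and 99.4 CPM), Nfia 2.83 higher and Tcf4 1.79 higher. Sox5 (-4.19) and Ldb2 (-4.13), both regulators found in neocortical projection neurons, were among the lower ones. The median difference of the 30 was 0.92, against -0.01 over all genes. No cell type and no cortical layer was assigned to these nuclei, which the paper was unable to establish as cortical.

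Factors were also read nucleus by nucleus. After thinning, 73.6% of male and 69.6% of female L2/3 IT CTX-1 nuclei had UMIs of upper-layer factors (Cux1, Cux2 or Rorb) alone, and 1.92% and 2.11% had deep-layer factors (Bcl11b, Fezf2, Tbr1, Tle4 or Foxp2) alone. In L6 CT, 21 of 35 male and 25 of 44 female nuclei had deep-layer factors alone, and 2 and 6 had upper-layer factors alone. In L5 PT, 47.8% and 52.7% held neither set, 20.1% and 14.9% the deep set alone and 25.7% and 26.0% the upper set alone. Microglia, which are rich in Cux1, held the upper set alone in 46.9% of 194 male and 58.1% of 1689 female thinned nuclei. The part of such background in the upper set of neuron labels was not tested. Neither set was also the largest share in L6 IT (46.4% and 55.9%) and L2/3 IT CTX-2 (44% and 44.1%). Before thinning, Cux1 was found in 142 of 352 male and 181 of 290 female L5 PT nuclei, against 38 and 57 for Rorb and 16 and 19 for Cux2.

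**Figure D3:**
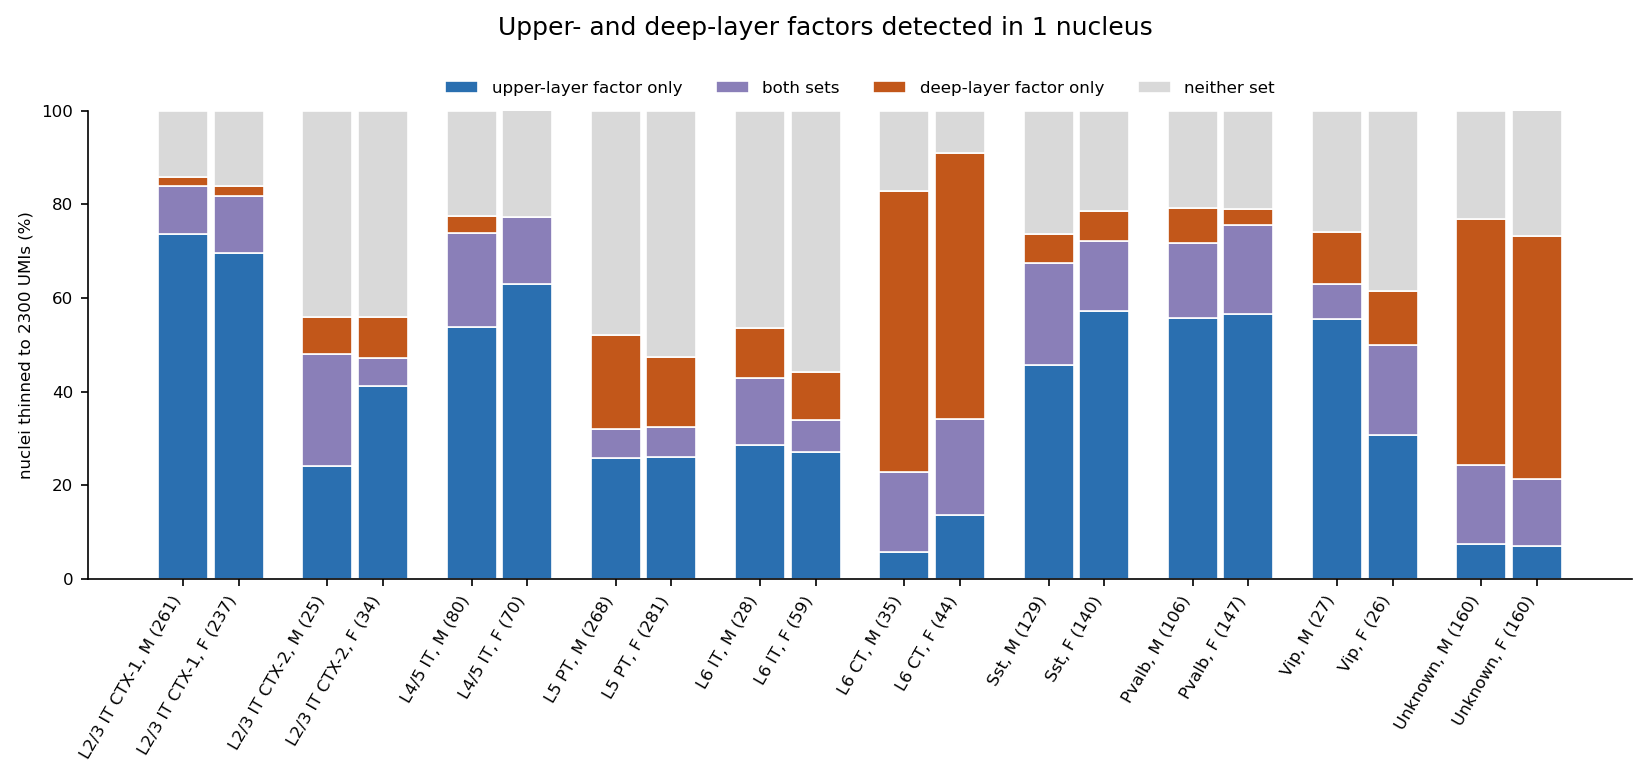
Share of nuclei in each label and library (M male, F female, number of nuclei in parentheses) in which UMIs of upper-layer factors, deep-layer factors, both or neither were found after each nucleus was thinned to 2300 UMIs. L6 CT and Unknown nuclei mostly held the deep set alone, and L2/3 IT CTX-1 and L4/5 IT the upper set alone. Neither set is the largest share in L5 PT (47.8 and 52.7%), L6 IT and L2/3 IT CTX-2. Microglia, which are not drawn, held the upper set alone in 46.9% of 194 male and 58.1% of 1689 female nuclei.

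Pairs of factors within a type were found in the same nuclei. In L4/5 IT, 34 of 100 male and 39 of 71 female nuclei held both Cux2 and Rorb. In L6 CT, 17 of 41 male and 23 of 44 female nuclei held both Tle4 and Foxp2, and in L5 PT, 2 of 352 male and 9 of 290 female nuclei held both Bcl11b and Fezf2. In the Unknown nuclei, Bcl11b and Tle4 were found together in 78 of 225 male and 86 of 170 female nuclei. These counts rise with depth, since the female library had more UMIs per nucleus, and no doublets were removed here. They also rise with the share of each factor alone, as with Tle4 in 37 and Foxp2 in 27 of 44 female L6 CT nuclei. Whether pairs were found together more often than these single shares give was not tested.

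Nuclei that still held an Atf3 UMI were compared with those of the same label and library that did not. Of the 9 factors, 5 were tested and 0 passed in edgeR's quasi-likelihood test, against 5.21% of 3974 genes (1.84% higher and 3.37% lower). At an unadjusted p under 0.05 there was 1, Cux2 (-0.23, SE 0.10, adjusted p = 0.218), and DESeq2 also called 0, with 2 at an unadjusted p under 0.05. Bcl11b did not pass the filter, and in L5 PT it was at 40.3 CPM with and 69.4 CPM without an Atf3 UMI in the male library and at 46.2 and 38.3 CPM in the female library, in opposite directions. Rorb in L5 PT was higher with an Atf3 UMI in both libraries, at 49.8 against 25.6 CPM (male) and 44.0 against 26.0 CPM (female), and so was Foxp1, at 616 against 514 CPM and 551 against 456 CPM, with no test within this label. Fezf2 in L5 PT was at 0 CPM with and 4.13 CPM without an Atf3 UMI in the male library and at 2.72 and 9.28 CPM in the female library, from 5 to 15 UMIs where it was found. Of the other regulators, 15 were tested, 0 rose and 2 fell (Nfix -0.64, Zfpm2 -0.45).

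Other genes followed the factors across the 10 groups of nuclei. The likeness is Pearson's r of log2(CPM + 10) over the 10 groups in each library, among 6026 genes, and is given as a description, since the groups share libraries and depth. Foxp1 was most like Hs3st2 (r of 0.945 in male and 0.917 in female nuclei), Esyt2 and Meis2. Bcl11b was most like Olfml2b (0.905 and 0.913), Mycbp2 and Ahcyl2. Cux2 was most like Hrh1 (0.845 and 0.872), Rasgrf2, which is itself a marker of upper layers, and Prag1.

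For Cux1 the order was Sestd1 (0.919 and 0.806), Zbtb7c and Myh10, and for Rorb Cacna1b (0.84 and 0.794), Tmem178b and Cask. Tle4 was followed by Thsd7b (0.886 and 0.795), Ubac2 and Map2k4, and Foxp2 by Cdh18 (0.815 and 0.891), Acin1 and Ermp1. Fezf2 and Tbr1 did not reach 30 CPM in a label in both libraries, and likeness was not read for them. Reads of Cux1, Cux2 and Foxp1 may be shared with genes that overlap them in the annotation (Gm16599, Gm3970 and Gm15637 on the opposite strand and Gm20696 on the same strand).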

How the data were processed

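The authors sorted GFP+/DRAQ5+ nuclei, made 10X Genomics 3′ v3 libraries and ran CellRanger against a pre-mRNA form of GRCm38 (the headers of the matrices of called barcodes give 7.0.1 and 7.0.0). They deposited the resulting raw UMI counts, and a table of nuclei made in Seurat with clusters and labels from mapping to a motor cortex reference. The other deposited matrix, of depth-corrected values (a score), was not used.

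From the deposited counts, UMIs were summed per library and label for the 9 labels with at least 50 nuclei and for Unknown. The 20 sums were fitted in edgeR 4.0.16 (R 4.3.3, limma 3.58.1) with TMM factors, filterByExpr and the quasi-likelihood test, with Benjamini-Hochberg adjustment over 9673 genes and a threshold of 0.05 (common dispersion 0.029, a biological coefficient of variation of 0.17). The test was first tested on simulated data. Values of 1 library are log2 ratios of CPM with 0.5 CPM added, with no test. The Atf3 comparison used sums of at least 10 nuclei with library and label as a block. Thinned shares of nuclei with 1 gene are the expectation at 2300 UMIs per nucleus. Thinned shares of sets of factors and the thinned tests come from 1 random draw and carry its noise. Shallower nuclei were left out of both. Intervals and floors (3 counts) cover counting error only. Totals were 11007366 UMIs in 4044 called barcodes of the male and 23202343 in 4214 of the female library, and 1 barcode was in both.

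The same 2 pools give every label and same-numbered sums come from the same animals, so the sums are paired, and 1 alternative added the library as a block. Other alternatives were DESeq2 1.42.0, no TMM, no filter, labels of at least 20 nuclei, thinning, and leaving out nuclei with microglial UMIs or 1 library. The factors and lists were chosen with earlier results of these data known. The text names all 9 factors, the 3 genes most like each, and up to 3 other regulators in each direction by adjusted p. Some results for genes on these lists are not reported here.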

Additional observations from a re-analysis of the deposited data

Results flagged for a closer look

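In 9 cases the male and the female library gave opposite signs for the same comparison of a factor that was tested. The difference between libraries was not tested, since each sex is 1 pool, and none of these 9 passed the fit over both libraries. Values are log2 ratios of CPM in the male and then the female library. Between L5 PT and L2/3 IT, Tbr1 was at 0.92 and -1.17 and Foxp2 at -0.52 and 0.62. Between L6 CT and L5 PT, Cux1 was at -0.23 and 0.19 and Cux2, from 1 and 3 UMIs in L6 CT, at -0.96 and 0.20. Between L4/5 IT and L2/3 IT, Cux1 was at -0.26 and 0.16. Between L2/3 IT CTX-2 and L2/3 IT CTX-1, Bcl11b was at -0.39 and 1.63. Between Unknown and the excitatory labels, Tbr1 was at -0.15 and 0.27. Between nuclei with and without an Atf3 UMI, Rorb was at -0.20 and 0.19 and Tle4 at 0.27 and -0.05.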

How the results depend on the processing

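Of 53 tested values of the factors, 22 were called, and 12 of these were called under every alternative that kept both libraries. DESeq2, no filter, the library as a replicate block and labels of at least 20 nuclei each kept 22, library totals without TMM kept 20, thinning kept 15 of the 21 it gave a value for, and leaving out nuclei with 3 or more microglial UMIs 13 of 21. That last setting removed most female nuclei, so leaving out the 25% of nuclei with most microglial UMIs was added after seeing the data and kept 20. The block added calls of Foxp1 in L5 PT against L2/3 IT, Cux1 between the L2/3 IT labels and Foxp2 in Unknown, and lost none. With 1 library left out there are no residual degrees of freedom, and the report gives the value with no test for each called result that it moved by over 1.5 times.

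Counts of genes called fell with thinning and without nuclei holding 3 or more microglial UMIs. They went from 1193 to 652 and 276 between L5 PT and L2/3 IT, from 1237 to 596 and 285 between L6 CT and L5 PT, from 391 to 112 and 30 between L4/5 IT and L2/3 IT, from 2212 to 1121 and 655 between inhibitory and excitatory labels, and from 3617 to 2115 and 1281 in Unknown. The replicate block gave 703 in L4/5 IT. Between the L2/3 IT labels the count of 33 became 76 with DESeq2, 118 with no filter, 132 with the replicate block and 21 without the 25% richest in microglial UMIs. For Atf3 status the count of 207 became 365 with no filter, 1 with no replicate block, 60 after thinning, 0 without nuclei with 3 or more microglial UMIs and 131 without the 25%. Of the factors called, the 5 between L6 CT and L5 PT became 2 after thinning and 2 without nuclei with 3 or more microglial UMIs. The 2 in L4/5 IT became 1 without TMM and in both settings without microglia-rich nuclei, and the 2 between the L2/3 IT labels became 1 in those settings and 0 after thinning.

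Signs turned only for values that were not called, and the cause was not tested. Cux1 between L6 CT and L5 PT was 0.01 with DESeq2, 0.04 without TMM and 0.0038 with labels of at least 20 nuclei, and Cux2 there was 0.32 without the 25%. In L4/5 IT, Cux1 was -0.05 without TMM, -0.13 without nuclei with 3 or more microglial UMIs and -0.0038 without the 25%. Tle4 there was -0.03 with DESeq2, -0.09 without TMM, -0.01 with smaller labels, and -0.08 and -0.15 without microglia-rich nuclei, and Bcl11b was -2.11 without nuclei with 3 or more microglial UMIs. Under that setting Rorb was 0.30 between the L2/3 IT labels and Cux1 0.12 for Atf3 status. After thinning, Cux1 was 0.09 between inhibitory and excitatory labels and Foxp1 0.06 for Atf3 status. Rorb for Atf3 status was -0.05 with DESeq2, -0.001 without TMM, -0.03 with no filter and -0.48 with no replicate block.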
